A study of Homo sapiens with 6 samples.

Results

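Kinesins are motor proteins that walk along microtubules, and 48 of 14779 measured genes encode kinesins, their dedicated subunits or the kinesin-binding protein KIFBP. They were compared between cells with a hairpin against glycine decarboxylase (shGLDC99) and cells with a control hairpin (shGFP), and a gene is said to have risen or fallen where its limma p, adjusted over all genes, was under 0.05. Of 14 kinesins of cell division, 9 fell in shGLDC99 cells, 0 rose and 5 did not pass the threshold. Of 23 genes of axonal and organelle transport, 3 rose (KIF3A, KIF1A and KIFBP), 1 fell (KIF1C) and 19 did not pass it. Over all genes, 4.80% were called lower and 3.72% higher. Of 11 genes placed in neither class, 2 fell and 0 rose. At an unadjusted limma p under 0.05, 13 division kinesins were lower and 0 higher, 3 transport genes were lower and 7 higher, and 2 of the others were lower and 0 higher, beside 13.2% lower and 11.1% higher over all genes. The median difference, shGLDC99 minus shGFP on the log2 scale, was -0.40 over the division kinesins, 0.06 over the transport genes and -0.02 over the others, beside -0.01 over all 14779 genes tested.

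The cells were LA1-55n, an established human neuroblastoma line. Each group held 3 arrays of total RNA, called a, b and c. The shGLDC99 cells carried a tet-on hairpin directed at GLDC, which opens the breakdown of glycine in mitochondria, and the shGFP cells carried a tet-on hairpin directed at GFP, which serves as the control. Both groups received 0.5 µg/ml doxycycline for 7 days, so the antibiotic and an induced hairpin are shared by all arrays. The data hold 1 hairpin against GLDC, and whether the cells were clones or pools is not given in the sources used here. The members were every gene whose symbol is KIF with a digit, KIFC, KIFAP, KIFBP or KLC, with antisense symbols left out. They came from 51 probe sets, and for KIF27 and KLC2, which had several, the brightest on average was taken. They were placed by general knowledge of their roles, with KIF2A, which serves both spindle poles and neurites, among the others. KIFBP, which is no motor and binds motors of both classes, was counted with the transport genes.

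The motor domain of a kinesin hydrolyses ATP to step along a microtubule or, in a few families, to shorten it. Kinesins of division push spindle poles apart, position chromosomes, correct faulty attachments and build the midzone that guides the cleavage furrow, and their transcripts rise late in the cell cycle. Kinesins of transport carry vesicles, mitochondria and endosomes, and neurons rely on them to supply the axon.

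The hairpin's target was lower in all shGLDC99 arrays. GLDC read 5.98, 5.65 and 5.93 in the shGLDC99 arrays, against 7.85, 7.90 and 7.81 in the shGFP arrays, which leaves 24.9% of the control level, with a log2 difference of -2.004 ± 0.1002 (SE; limma adjusted p = 0.00101). Arrays of a group correlated at 0.993 to 0.994 and arrays of different groups at 0.988 to 0.990, and array medians were 4.28 to 4.33. Of 12 sympathetic neuroblastoma markers 10 were measured, of which 1 rose (CHGB) and 3 fell (ISL1, GATA2 and GATA3). The lineage factors GATA3, HAND2 and PHOX2A averaged 9.17, 8.06 and 7.10 in shGLDC99 cells and 9.65, 7.98 and 7.30 in shGFP cells, whereas DBH and HAND1 lay under the median gene level of 5.09 in both groups. Of 29 listed markers of Schwann cells, fibroblasts, endothelium, leukocytes and epithelium 14 were measured, and CD68 alone lay above that level. The mean level of the 2 measured fibroblast markers, DCN and LUM, was 2.82 to 2.89 in shGLDC99 arrays and 2.47 to 2.63 in shGFP arrays, with LUM called higher by 0.52 (limma adjusted p = 0.0125). The mean of the 4 measured epithelial markers was 3.80 to 3.90 in shGLDC99 arrays and 3.67 to 3.74 in shGFP arrays, with KRT19 and KRT18 higher by 0.39 and 0.31 at limma adjusted p of 0.19 and 0.193 (unadjusted 0.0435 and 0.0447). CD68 was higher by 0.21 (limma adjusted p = 0.195, unadjusted 0.0456). The means of the Schwann, endothelial and leukocyte markers overlapped between the groups, and of the 14 genes LUM alone passed the adjusted threshold. The part of these markers in the results below was not tested.

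Promoters of the members were examined for the cell cycle genes homology region (CHR), the element through which the DREAM and B-MYB complexes act on late cell cycle genes, and for the Y box, which the factor NF-Y binds and which often lies beside it. The CHR was searched in its first form, TTTGAA, and its second form, TTCGAA, and the Y box as CCAAT, each on both strands with overlaps between motifs allowed, in windows of 250 bases before to 50 bases after each RefSeq gene start (GRCh38.p14). Promoters were matched by symbol for 38 of the 48 members. The first form lay in 10 of 14 division kinesins, in 1 of 16 transport genes (KIF5B) and in 0 of 8 others, beside 15.3% of 10715 measured genes with a promoter and 15.2% of all 35116 promoter windows. The second form lay in KIF22 and KIF24, beside 2.18% of those genes and 1.45% of all windows. The Y box lay in 11 of 14 division kinesins, 5 of 16 transport genes and 3 of 8 others, beside 41.4% of those genes and 34.6% of all windows. Of the 14 division kinesins 10 held both a form of the CHR and the Y box, beside 7.07% of those genes. A match is a description of letters, not of a working site.

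The stretches shown run from 130 bases before to 20 bases after the start. They belong to the called division kinesins with the smallest adjusted p. KIF11 is added as an example with both motifs and was chosen after its motifs were seen. Capitals mark the motifs, read on the strand of the gene, so that TTCAAA and ATTGG are the reverse complements of the first CHR form and of the Y box. The windows were KIF20A at chr5:138178982-138179131, plus strand; KIF14 at chr1:200620732-200620881, minus strand; KIF2C at chr1:44739707-44739856, plus strand; KIF23 at chr15:69414219-69414368, plus strand; and KIF11 at chr10:92593000-92593149, plus strand.
KIF20A: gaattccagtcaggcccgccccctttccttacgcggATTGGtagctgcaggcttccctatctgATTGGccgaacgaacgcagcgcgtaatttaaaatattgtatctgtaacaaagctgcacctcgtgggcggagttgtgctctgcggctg
KIF14: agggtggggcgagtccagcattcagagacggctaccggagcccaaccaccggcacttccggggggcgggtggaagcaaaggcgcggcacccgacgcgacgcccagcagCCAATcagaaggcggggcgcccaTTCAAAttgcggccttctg
KIF2C: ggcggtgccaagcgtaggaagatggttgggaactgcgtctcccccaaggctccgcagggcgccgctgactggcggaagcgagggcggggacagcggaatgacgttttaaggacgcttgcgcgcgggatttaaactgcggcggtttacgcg
KIF23: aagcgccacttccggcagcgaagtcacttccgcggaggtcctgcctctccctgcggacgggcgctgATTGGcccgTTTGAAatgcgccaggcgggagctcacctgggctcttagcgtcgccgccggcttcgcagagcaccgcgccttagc
KIF11: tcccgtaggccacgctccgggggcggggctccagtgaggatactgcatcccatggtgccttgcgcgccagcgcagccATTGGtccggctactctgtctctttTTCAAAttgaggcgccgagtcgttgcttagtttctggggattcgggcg

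In KIF14 the CHR started 2 bases into the transcript with the Y box 22 bases before the start, in KIF11 it started 28 bases before the start with the Y box at 53, and in KIF23 it started 55 bases before with the Y box at 64. KIF20A held the Y box at 94 and 67 bases before the start and no CHR in these letters. KIF2C held neither motif and also fell, as given below. KIF2B, which did not pass the threshold, held neither as well. KIF20B, KIF22, KIF4A and KIF4B, the other division kinesins that did not pass it, each held a form of the CHR and the Y box. Both motifs occurred in division kinesins that fell and in ones that were not called. KIF20B, KIF22, KIF4A and KIF4B were lower too, with differences of -0.28, -0.37, -0.27 and -0.29. Their limma adjusted p were 0.0532, 0.0861, 0.0511 and 0.166. Whether the motifs bear on the differences was not tested.

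For comparison, the same stretch is shown for the 4 called transport members and for KIF24, the called member outside both classes that had a promoter. KIF1A has 3 annotated starts, of which the most upstream is shown. The windows were KIF3A at chr5:132737527-132737676, minus strand; KIF1C at chr17:4997820-4997969, plus strand; KIF1A at chr2:240821384-240821533, minus strand; KIFBP at chr10:68988673-68988822, plus strand; and KIF24 at chr9:34329249-34329398, minus strand.
KIF3A: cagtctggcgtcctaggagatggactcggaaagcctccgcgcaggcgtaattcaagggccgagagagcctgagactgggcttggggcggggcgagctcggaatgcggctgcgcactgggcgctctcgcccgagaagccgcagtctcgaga
KIF1C: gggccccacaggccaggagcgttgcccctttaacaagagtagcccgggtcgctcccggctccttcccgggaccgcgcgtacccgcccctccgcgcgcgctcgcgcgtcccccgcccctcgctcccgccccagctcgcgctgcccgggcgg
KIF1A: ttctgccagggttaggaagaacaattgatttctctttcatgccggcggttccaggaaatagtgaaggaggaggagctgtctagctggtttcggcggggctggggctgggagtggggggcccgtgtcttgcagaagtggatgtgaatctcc
KIFBP: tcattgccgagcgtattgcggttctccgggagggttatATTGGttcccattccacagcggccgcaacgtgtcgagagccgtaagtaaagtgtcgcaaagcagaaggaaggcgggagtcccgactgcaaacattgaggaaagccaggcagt
KIF24: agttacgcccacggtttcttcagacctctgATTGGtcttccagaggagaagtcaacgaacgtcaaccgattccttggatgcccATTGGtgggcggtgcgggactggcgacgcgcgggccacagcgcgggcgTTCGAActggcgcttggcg

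KIF3A, KIF1C and KIF1A held none of the 3 motifs in their windows. KIFBP held the Y box at 135 and 92 bases before the start, the first of which lies outside the printed stretch. KIF24 held the second CHR form 2 bases into the transcript and Y boxes at 154, 100 and 47 bases before it, of which the first lies outside the printed stretch.

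**Figure D1:**
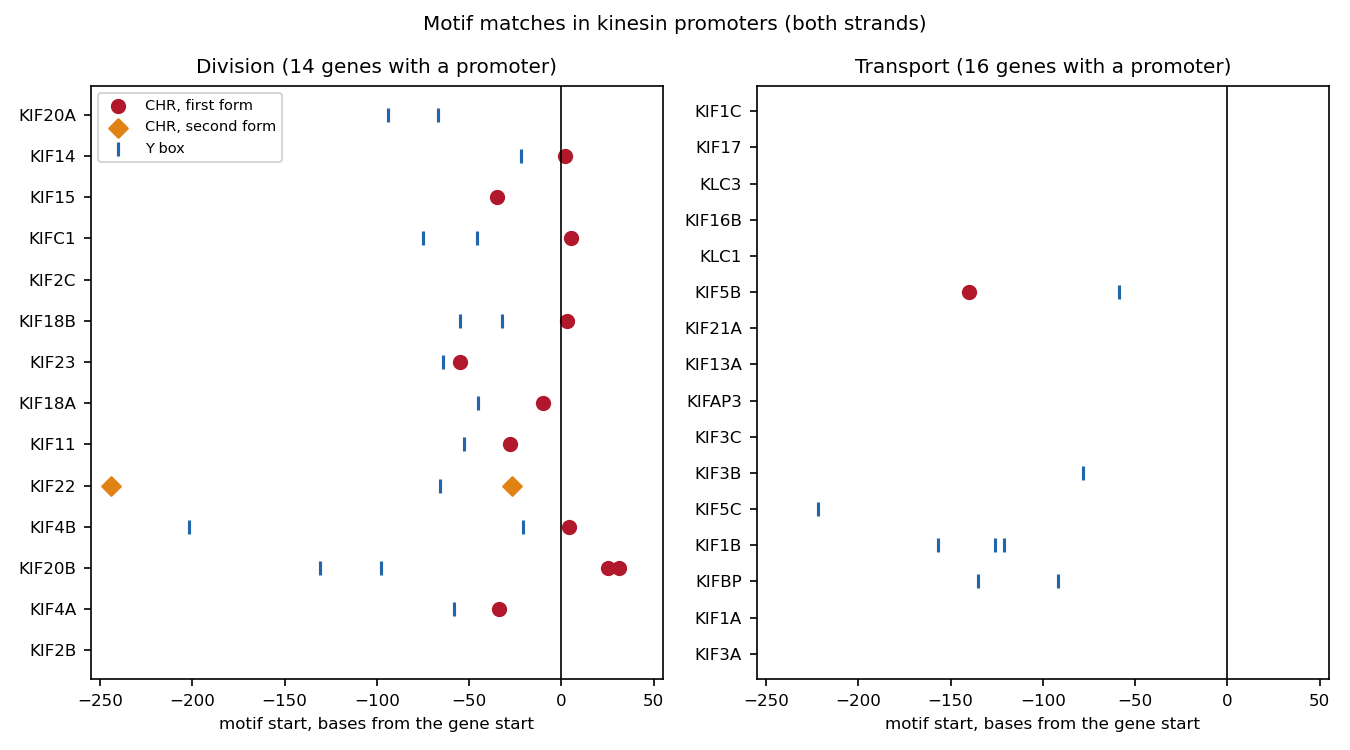
Positions of motif matches (first and second form of the CHR, and the Y box) in bases from the gene start, on the horizontal axis, for the division and transport members with a promoter, ordered from the lowest log2 difference at the top. The first CHR form appears in 10 of 14 division kinesins, mostly near the start, and in 1 of 16 transport genes.

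Among the division kinesins, those of the midzone and cleavage furrow included the largest falls. KIF20A, which brings the chromosomal passenger complex to the midzone, read 7.42, 7.23 and 7.33 in the shGLDC99 arrays, against 7.84, 7.84 and 7.89 in the shGFP arrays. Its log2 difference was -0.53 ± 0.0719 (SE), which leaves 69.1% of the control level (limma adjusted p = 0.00975). KIF14, which binds the midzone bundler PRC1 and citron kinase, read 7.86, 7.77 and 7.98 in the shGLDC99 arrays, against 8.44, 8.35 and 8.37 in the shGFP arrays. It fell by 0.52 ± 0.0771 (SE), to 69.8% of the control level (limma adjusted p = 0.0125). KIF23, the motor of the centralspindlin complex, read 7.96, 7.94 and 7.97 in the shGLDC99 arrays, against 8.44, 8.29 and 8.34 in the shGFP arrays. All 3 genes were lower in every shGLDC99 array than in any shGFP array, as were 16.3% of all genes. KIF23 fell by 0.40 ± 0.0663 (SE; limma adjusted p = 0.0174). KIF20B, a relative of KIF20A that acts late in cytokinesis, averaged 8.20 ± 0.0762 in shGLDC99 cells and 8.48 ± 0.0348 in shGFP cells (SD, n = 3 each), and its difference of -0.28 did not pass the threshold (limma adjusted p = 0.0532).

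The motors that build and hold the bipolar spindle were lower too. KIF11, which slides antiparallel microtubules apart and is a target of experimental cancer drugs, read 9.05, 9.08 and 9.17 in the shGLDC99 arrays, against 9.46, 9.47 and 9.49 in the shGFP arrays. It fell by 0.37 ± 0.0636 (SE), to 77.2% of the control level (limma adjusted p = 0.0193), with an SD of 0.0175 among the shGFP arrays. KIF15, which can take over the work of KIF11, read 7.06, 6.88 and 7.11 in the shGLDC99 arrays, against 7.50, 7.41 and 7.59 in the shGFP arrays, and fell by 0.49 ± 0.0873 (SE; limma adjusted p = 0.0224). KIFC1, a motor that runs to the minus end and gathers microtubules and extra centrosomes at the poles, read 6.59, 6.62 and 6.35 in the shGLDC99 arrays, against 7.00, 7.03 and 6.96 in the shGFP arrays. Array c was the lowest of the shGLDC99 arrays for KIFC1. The groups did not overlap in any of the 3 genes, nor did they in 30.8% of all genes. KIFC1 fell by 0.47 ± 0.0876 (SE; limma adjusted p = 0.0241).

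Motors that act at kinetochores and microtubule ends also fell. KIF18A, which damps the swings of chromosomes at the metaphase plate, read 7.29, 7.21 and 7.35 in the shGLDC99 arrays, against 7.64, 7.68 and 7.70 in the shGFP arrays, and fell by 0.39 ± 0.0662 (SE; limma adjusted p = 0.0182). KIF18B, which shortens astral microtubules, read 7.23, 7.10 and 7.02 in the shGLDC99 arrays, against 7.55, 7.53 and 7.53 in the shGFP arrays, and fell by 0.42 ± 0.0742 (SE; limma adjusted p = 0.0212). KIF2C, the depolymeriser that corrects faulty attachments, read 6.59, 6.78 and 6.67 in the shGLDC99 arrays, against 7.17, 7.11 and 7.16 in the shGFP arrays. It fell by 0.47 ± 0.0717 (SE; limma adjusted p = 0.0137). In none of these 3 genes did the groups overlap, nor did they in 30.8% of all genes. KIF2B, a related depolymeriser, read 3.75, 4.26 and 4.19 in the shGLDC99 arrays, against 4.45, 4.20 and 4.25 in the shGFP arrays. Its groups overlapped, its level lay under the median gene level in both groups, and its difference of -0.23 had an interval of -0.58 to 0.12 (95%; limma adjusted p = 0.402).

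The chromokinesins, which ride on chromosome arms, had negative differences that did not pass the threshold. KIF22, which pushes arms from the poles, read 7.59, 7.33 and 7.43 in the shGLDC99 arrays, against 7.77, 7.99 and 7.69 in the shGFP arrays, with array b the highest of the shGFP arrays, and differed by -0.37 (limma adjusted p = 0.0861). KIF4A, which shapes chromosomes and the midzone, read 7.06, 7.09 and 7.17 in the shGLDC99 arrays, against 7.36, 7.34 and 7.42 in the shGFP arrays, and differed by -0.27 (limma adjusted p = 0.0511). KIF4B, a near-identical copy of KIF4A, differed by -0.29 (limma adjusted p = 0.166). The likeness of both transcripts makes the assignment of signal between KIF4A and KIF4B uncertain. In all 3 genes every shGLDC99 array was below every shGFP array, as in 16.3% of all genes. KIF4A and KIF4B may not be separate readings in that count.

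**Figure D2:**
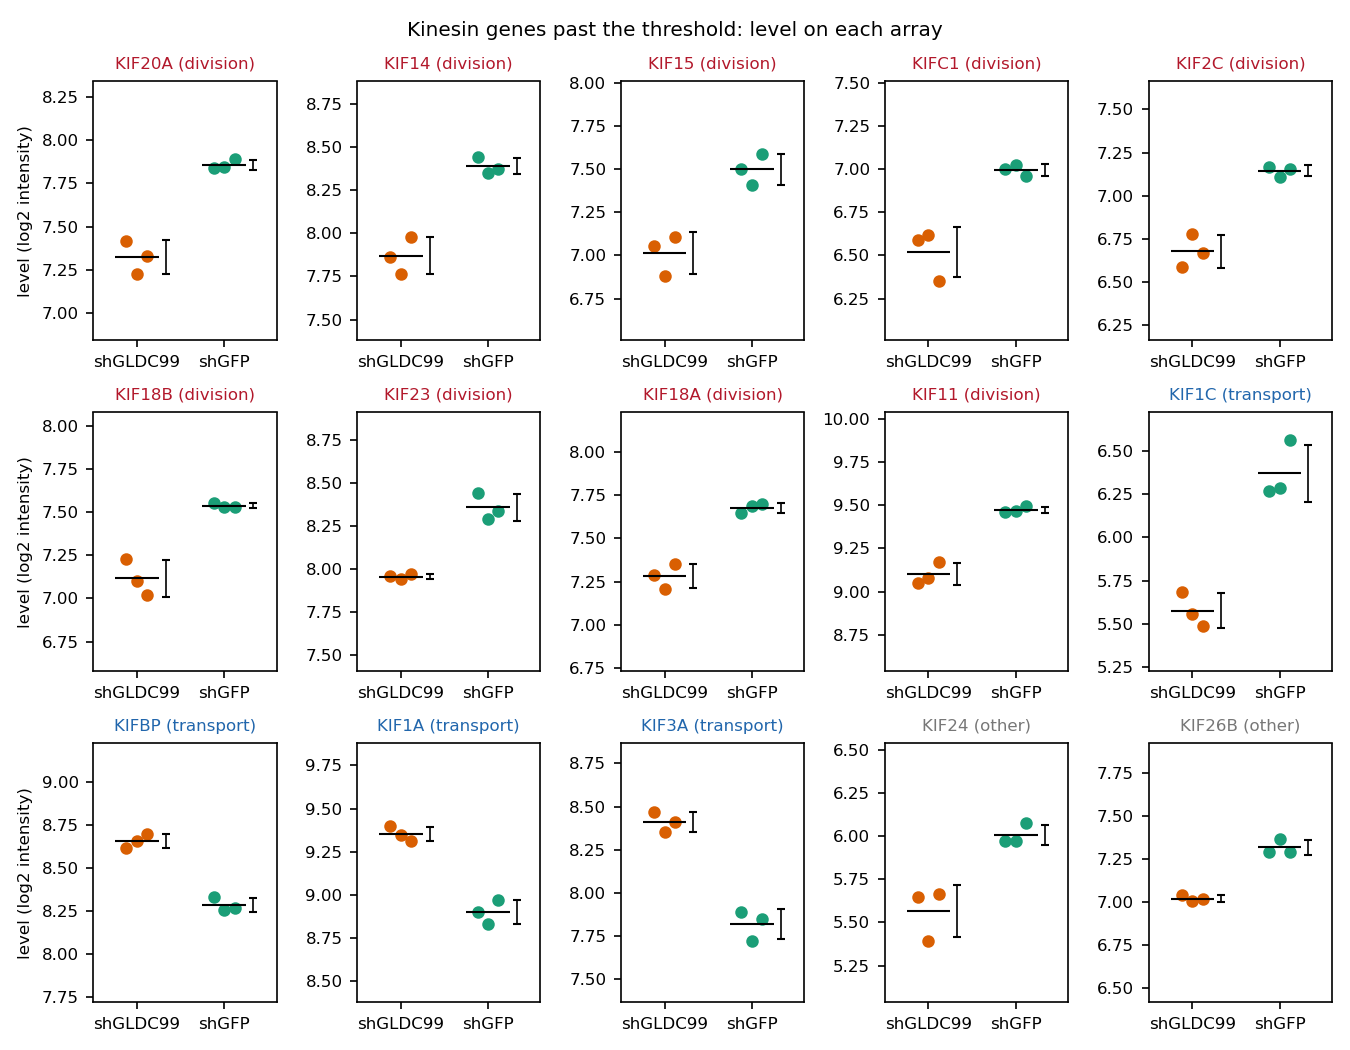
Level (log2 intensity, vertical axis, each panel spanning the same range) of the 15 kinesin genes past the threshold on each array, shGLDC99 at the left and shGFP at the right, with the mean as a line and the SD (n = 3) as a bar beside it. The groups do not overlap in any panel, and KIF3A, KIF1A and KIFBP are the genes with the shGLDC99 arrays on top. The genes were picked by their adjusted p from these same values, so the separation adds nothing to the calls.

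Counted over the class, all 14 division kinesins had negative differences, from -0.53 to -0.23, and 13 had every shGLDC99 array below every shGFP array. Over all genes, 4.80% were called lower, 51.6% had a negative difference and 16.3% had every shGLDC99 array lower. The 9 falls were small, leaving 69.1% to 77.2% of the control level. The SD between the differences was 0.0973 for the division kinesins, beside 0.284 for the transport genes and 0.237 over all genes. The classes were placed by hand with earlier results of these data known, so the range, the SD and the counts depend on that placement. KIF2A, which also serves spindle poles and differed by -0.02, was placed outside the class. Relative to the shGFP mean of each gene, the class median was -0.40, -0.41 and -0.39 in shGLDC99 arrays a, b and c, against 0.00, -0.01 and -0.01 in the shGFP arrays. In bulk RNA, fewer dividing cells and less of each transcript per dividing cell cannot be told apart. Fewer were called with 1 array left out: 4, 3 and 5 division kinesins fell without shGLDC99 array a, b or c, and 2, 4 and 1 without shGFP array a, b or c. Over all genes those fits called 238 to 327 genes lower, where 709 were called with all arrays. KIF20A was called in all 6 of those fits (adjusted p = 0.03 to 0.0455), KIF14 in 5, KIF2C in 3, KIF15 in 0 and the other 5 falls in 1 each.

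**Figure D3:**
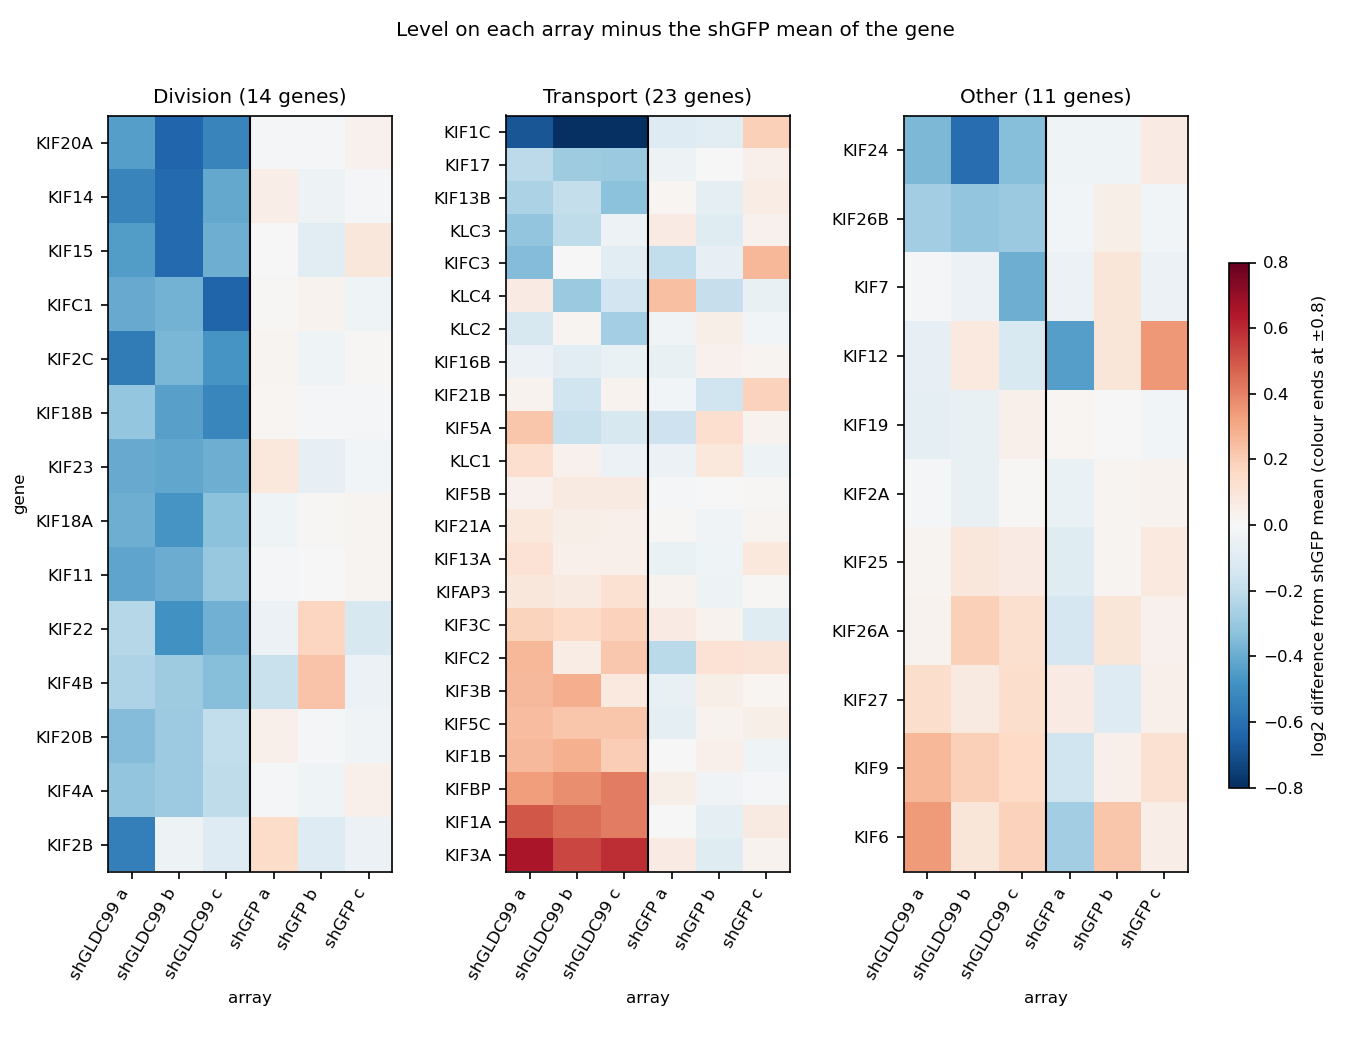
Level on each array minus the shGFP mean of the gene (log2, colour scale) for every kinesin gene, with the shGLDC99 arrays left of the line and the shGFP arrays right of it. The division class is blue on all shGLDC99 arrays, apart from KIF2B on array b, where it is near 0, and the transport class runs from blue at KIF1C to red at KIF3A.

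A further list of 36 genes held spindle and midzone proteins together with cell cycle regulators and markers. MYBL2, FOXM1, LIN9, LIN54, CCNA2, CDK1 and MKI67 are among the latter. The 29 measured genes of the list all had negative differences as well. Of these, 11 fell, 0 rose and 18 did not pass the threshold (21 lower and 0 higher at an unadjusted limma p under 0.05, beside 13.2% and 11.1% of all genes), with a median of -0.29 and 24 genes with every shGLDC99 array lower. Over all genes, 4.80% fell and 16.3% had every shGLDC99 array lower. TOP2A, which untangles chromosomes, fell by 0.46 (limma adjusted p = 0.00931) and CCNA2, cyclin A, by 0.44 (limma adjusted p = 0.0116). MKI67, a marker of cycling cells, fell by 0.40 (limma adjusted p = 0.0116), and INCENP, the scaffold of the passenger complex, by 0.49 (limma adjusted p = 0.0131). The kinetochore kinesin CENPE, whose symbol is outside the rule, had no named probe set.

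Of the 3 transport genes that rose, KIF3A belongs to the kinesin-2 family and KIF1A to the kinesin-3 family, and KIFBP is no motor but a kinesin-binding protein. KIF3A, the motor subunit that pairs with KIF3B in heterotrimeric kinesin-2 of cilia and axons, read 8.47, 8.35 and 8.41 in the shGLDC99 arrays, against 7.89, 7.72 and 7.85 in the shGFP arrays. It rose by 0.59 ± 0.0732 (SE), or 1.51-fold (limma adjusted p = 0.00804). Its partner KIF3B differed by 0.21 (limma adjusted p = 0.163), the neuronal partner KIF3C by 0.17 (limma adjusted p = 0.182), and the cargo-binding subunit KIFAP3 by 0.10 (limma adjusted p = 0.398). In these 4 genes of the heterotrimeric complexes every shGLDC99 array was above every shGFP array, as in 14.5% of all genes. KIF3A alone of them passed the threshold. KIF17, a kinesin-2 that works as a homodimer in cilia and dendrites, had the opposite sign: it read 6.02, 5.95 and 5.94 in the shGLDC99 arrays, against 6.20, 6.23 and 6.28 in the shGFP arrays, a difference of -0.26 just outside the threshold (limma adjusted p = 0.0505).

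The 3 KIF1 genes of kinesin-3 did not move alike. KIF1A, the neuronal carrier of synaptic vesicle precursors and dense-core vesicles, read 9.40, 9.35 and 9.31 in the shGLDC99 arrays, against 8.90, 8.83 and 8.97 in the shGFP arrays. It rose by 0.45 ± 0.0672 (SE), or 1.37-fold (limma adjusted p = 0.0125). KIF1B, which carries mitochondria and synaptic vesicle precursors, read 9.55, 9.57 and 9.48 in the shGLDC99 arrays, against 9.28, 9.32 and 9.25 in the shGFP arrays, and its difference of 0.25 did not pass the threshold (limma adjusted p = 0.058). KIF1C, a widely expressed relative that moves dense-core vesicles and Golgi-derived membranes, read 5.69, 5.56 and 5.49 in the shGLDC99 arrays, against 6.27, 6.29 and 6.56 in the shGFP arrays. It fell by 0.80 ± 0.103 (SE), to 57.6% of the control level (limma adjusted p = 0.00907), which was the largest difference among the 48 members in either direction. None of the 3 genes had overlapping groups, nor did 30.8% of all genes.

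KIFBP encodes a protein that binds the motor domains of several kinesins, among them KIF1A, KIF1B, KIF15 and KIF18A, and holds them off the microtubule. It read 8.62, 8.66 and 8.69 in the shGLDC99 arrays, against 8.33, 8.26 and 8.27 in the shGFP arrays. It rose by 0.37 ± 0.0614 (SE), or 1.29-fold, and the groups did not overlap (limma adjusted p = 0.0177). With 1 array left out the adjusted p for KIFBP lay between 0.0496 and 0.0663 and passed only without shGFP array a. KIF3A, KIF1A and KIF1C passed whichever array was left out.

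Conventional kinesin, the dimer of KIF5 heavy chains with light chains, had no call. KIF5C, the neuronal heavy chain, read 9.86, 9.84 and 9.84 in the shGLDC99 arrays, against 9.54, 9.65 and 9.67 in the shGFP arrays, and its difference of 0.23 did not pass the threshold although the groups did not overlap (limma adjusted p = 0.0777). The ubiquitous heavy chain KIF5B differed by 0.06, with an interval of -0.08 to 0.19 (95%), and the neuronal KIF5A by -0.03, with an interval of -0.34 to 0.29. KLC1, the neuronal light chain, differed by 0.04, KLC2 by -0.13, KLC4 by -0.13 and KLC3 by -0.19 (limma adjusted p = 0.274 to 0.796 for the 4). The groups overlapped for KIF5A and for all 4 light chains. KLC3 and KLC4 lay under the median gene level in both groups. The second and dimmer probe set of KLC2 gave -0.33.

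The endosomal kinesin-3 motors KIF13A, KIF13B and KIF16B differed by 0.07, -0.26 and -0.07, of which KIF13B had separate groups (limma adjusted p = 0.073). KIF21A and KIF21B, which restrain microtubule growth, differed by 0.06 and -0.03, and the minus-end motors KIFC2 and KIFC3 by 0.18 and -0.15. KIFC3 lay under the median gene level in both groups and KIFC2 in the shGFP group. None of these 7 passed the threshold (limma adjusted p = 0.073 to 0.887).

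Counted over the class, 13 of 23 transport genes had positive and 10 had negative differences. Every shGLDC99 array was higher than every shGFP array in 10 of the 23 and lower in 3, beside 14.5% higher and 16.3% lower of all genes. The 3 rises of 23 stand beside 3.72% of all genes called higher, and the 1 fall beside 4.80% called lower. With 1 array left out, 2 or 3 rose and 1 fell. Differences of the 19 genes that were not called ran from -0.26 to 0.25. No test of the contrast between the division and the transport class was made.

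**Figure D4:**
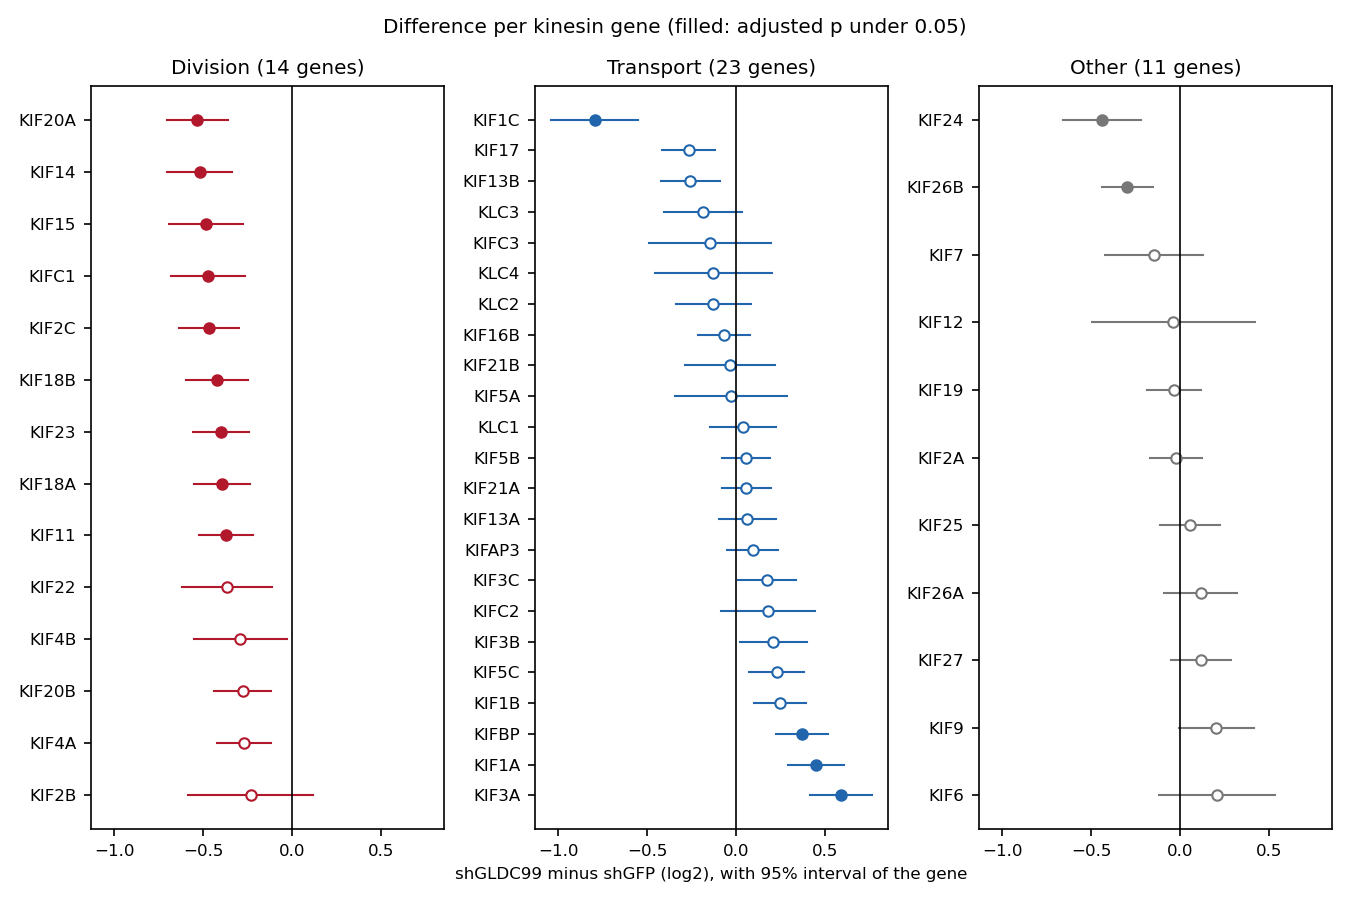
Difference per gene, shGLDC99 minus shGFP on the log2 scale (horizontal axis), with its 95% interval from the limma fit, for the division, transport and other kinesins. All 14 division kinesins lie left of 0 and all but KIF2B have intervals that leave out 0, whereas the transport genes lie on both sides, from -0.80 for KIF1C to 0.59 for KIF3A.

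Genes of retrograde transport and of cargo adaptors were taken as the other side of the same traffic. Of 26 listed genes of dynein, dynactin and their regulators 13 were measured, 1 fell and 0 rose (1 lower and 1 higher at an unadjusted limma p under 0.05, beside 13.2% and 11.1% of all genes), with a median of 0.08. No dynein chain was among the measured genes, which were dynactin subunits, NDE1, NDEL1 and BICD and HOOK adaptors. NDE1, a dynein regulator that also acts in mitosis, fell by 0.47 (limma adjusted p = 0.0182), while its relative NDEL1 differed by 0.24 (limma adjusted p = 0.0636). Of 29 listed cargo adaptors and track regulators 20 were measured, 3 rose and 1 fell (6 higher and 2 lower at an unadjusted limma p under 0.05), with a median of -0.03. Over all genes, 3.72% rose and 4.80% fell, and 11.1% were higher and 13.2% lower at the unadjusted threshold. FEZ1, an adaptor of KIF5 in axons, rose by 0.56 (limma adjusted p = 0.00924), SYBU, an adaptor of KIF5 for syntaxin vesicles, by 0.54 (limma adjusted p = 0.028), and DCLK1, a microtubule-binding kinase, by 0.38 (limma adjusted p = 0.0397). GRIP1, which links KIF5 to glutamate receptors, fell by 0.35 (limma adjusted p = 0.0282). Of 21 listed tubulins 0 had a named probe set.

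**Figure D5:**
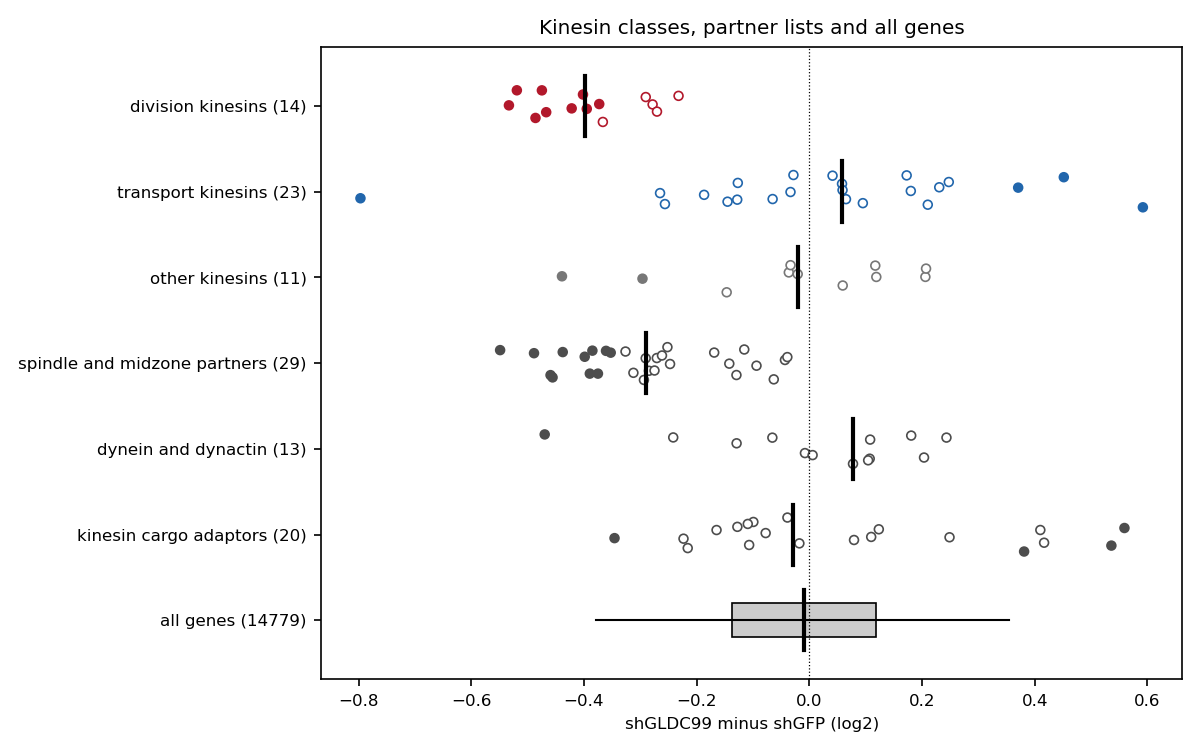
Difference per gene, shGLDC99 minus shGFP on the log2 scale (horizontal axis), for the kinesin classes and the partner lists, with filled points for adjusted p under 0.05 and a thick line at each median. For all 14779 genes the box spans the quartiles and the line the 5th to 95th percentile. The list labelled spindle and midzone partners also holds cell cycle regulators and markers. It and the division kinesins lie left of 0, and the other lists lie on both sides.

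Of the members outside both classes, 2 fell. KIF24, which shortens microtubules at the mother centriole and restrains cilium formation, read 5.65, 5.39 and 5.66 in the shGLDC99 arrays, against 5.97, 5.97 and 6.07 in the shGFP arrays. It fell by 0.44 ± 0.0913 (SE; limma adjusted p = 0.0343), with array b the lowest. KIF26B, an atypical member on which Wnt5a and ROR signalling acts in mouse cells, read 7.04, 7.00 and 7.02 in the shGLDC99 arrays, against 7.29, 7.36 and 7.29 in the shGFP arrays, and fell by 0.30 ± 0.0600 (SE; limma adjusted p = 0.0316). Neither group pair overlapped, but neither gene passed the threshold with any 1 of the 6 arrays (shGLDC99 or shGFP a, b or c) left out, so 0 fell in each of those fits.

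KIF2A, the relative of KIF2C that also prunes neurites, read 8.95, 8.90 and 8.97 in the shGLDC99 arrays, against 8.91, 8.98 and 8.99 in the shGFP arrays. Its difference was -0.02, with an interval of -0.17 to 0.13 (95%; limma adjusted p = 0.878), while that of KIF2C was -0.64 to -0.30. KIF7, the ciliary-tip regulator of hedgehog signalling, differed by -0.15 and its relative KIF27 by 0.12. KIF6, KIF9 and KIF19, which serve motile cilia, differed by 0.21, 0.21 and -0.03, all with means under the median gene level in both groups. The same holds for KIF12 and KIF25, at -0.04 and 0.06. KIF26A, the relative of KIF26B, differed by 0.12. None of these 9 passed the threshold (limma adjusted p = 0.218 to 0.935).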

How the data were processed

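Per the labels, RNA of 6 samples (3 per group) was hybridised to arrays of the Affymetrix type Human Gene 2.0 ST. The deposited values are log2 intensities per probe set, made by the authors with Partek, per the submitters' processing notes. How they corrected background, normalized and summarised is not stated here. The log base is not stated. It was taken as log2 from the maximum of 13.28, since a full 16-bit signal would give 11.09 as natural log. The folds and percents of the control level rest on that inference. The values were used as they are, dim probe sets included. Precision is limited by the number of arrays.

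Of 31135 probe sets, 15098 carry 1 gene symbol by the annotation of the platform (0 carry several), and all of these match RefSeq's gene list by Entrez ID, and 16037 have no gene name here. They give 14779 genes, each by its probe set with the highest mean. The lmFit and eBayes functions of limma 3.58.1 under R 4.3.3, with no covariates, tested shGLDC99 minus shGFP, with p-values adjusted by Benjamini-Hochberg over all 14779 genes. A gene rose or fell where its adjusted p was under 0.05. Intervals are for single genes. Nothing in the labels says how the samples of a group were separated beyond calling them independent, so a p-value here reflects only how much these samples vary, which may be technical. On simulated data with 200 of 14779 genes changed, the fit recovered 41% of genes changed by 0.5 and 79% of those changed by 1, with 11 unchanged genes among 131 called. Each simulated gene took its SD from these arrays. The adjustment depends on the share of changed genes, and in the data 550 rose and 709 fell. The recovery rates may therefore not hold for the fit used here.

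The members, classes, partner lists and markers were chosen with earlier results of these data known. All members are accounted for; of each partner list, up to 4 called genes with the smallest adjusted p are named. Promoter sequences are RefSeq's (GRCh38.p14). Those without a match were KIF13B, KIF19, KIF21B, KIF26B, KIF27, KIF5A, KIFC2, KIFC3, KLC2 and KLC4. Alternatives were quantile normalization again, median centring, leaving out the dimmest 40% of genes, averaging probe sets, testing all probe sets, the replicate block, array weights, an intensity trend, an adjusted p under 0.01 and leaving out each array. Tables came in through data.table (version 1.17.8), and matplotlib 3.10.9 drew the plots.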

Additional observations from a re-analysis of the deposited data

How the results depend on the processing

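The 9 falls among the division kinesins numbered 9 under quantile normalization again, median centring, averaged probe sets and all probe sets tested. They numbered 12 with the dimmest 40% of genes dropped and with an intensity trend, 10 with array weights, 0 with the replicate block, 1 at an adjusted p under 0.01 and 1 to 5 with 1 array left out. Transport rises numbered 6 with an intensity trend, 5 once the dimmest 40% of genes were dropped, 1 with the replicate block and 1 at an adjusted p under 0.01, against 3. Transport falls numbered 2 under quantile normalization again and with array weights, 3 with an intensity trend and with the dimmest 40% dropped, and 0 with the replicate block, against 1. Falls among the other kinesins numbered 0 with all probe sets tested, with the replicate block, at an adjusted p under 0.01 and with any 1 array left out, against 2. Over all genes, 103 rose and 126 fell with the replicate block, 118 and 157 at an adjusted p under 0.01, 361 and 480 with all probe sets tested, 969 and 1252 without the dimmest 40%, 1088 and 1350 with an intensity trend, and 207 to 240 and 238 to 327 with 1 array left out, against 550 and 709. Whether arrays with the same letter were handled together is not stated in the labels. Deviations from the group means of same-letter arrays correlated at -0.0119, 0.0182 and -0.00106. Array b alone of the 3 shGLDC99 arrays correlated best with its own letter. A correlation over all genes cannot show whether single genes were affected by such a pairing.

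The median difference of the division kinesins was -0.42 to -0.38 with 1 array left out. Sign changes were limited to genes that were not called. With 1 array left out, KIF21B ran from -0.112 (without shGFP array b) to 0.0576 (without shGFP array c), KIF5A from -0.155 to 0.0472 (without shGLDC99 array a or b), KLC1 from -0.00683 to 0.0857 (without shGLDC99 array a or c) and KIF12 from -0.257 to 0.136 (without shGFP array a or c). KIF27 gave -0.0225 with averaged probe sets. Why counts and signs changed between settings was not tested. The signal over background of dim genes is unknown, which limits KIF2B, KIFC2, KIFC3, KLC3, KLC4, KIF6, KIF9, KIF12, KIF19 and KIF25.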
